A study of Mus musculus with 6 samples.

Results

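Transcripts of 10 components and targets of the Hedgehog pathway were followed in tauGFP-positive cells sorted from the mouse hindbrain at E10.5. The genes were Shh, Ptch1, Hhip, Gas1, Boc, Cdon, Smo, Gli1, Gli2 and Gli3, and every probe set that the platform's probe table pairs with exactly 1 of these symbols was taken. This gave 26 of 45037 probe sets and 10 of 18193 genes, and a gene was represented by the probe set whose mean on the 6 arrays was highest. The control group (n = 3 arrays) carried Hoxb1-IRES-tauGFP and made the normal Hox-B1 protein. The swap group (n = 3 arrays) made another Hox protein from the Hoxb1 locus, with the same IRES-tauGFP tag. Animals of both groups thus carried a modified Hoxb1 locus, and the sort took the cells in which this locus was active. Whole litters were pooled for each array, and the labels give neither the number of embryos nor whether the allele was homozygous. Any p-value below thus rests on the spread among pools of litters.

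Hedgehog signalling patterns the ventral neural tube. The ligand Sonic hedgehog, made by the notochord and the floor plate, binds the receptor Patched 1, which then no longer holds back the membrane protein Smoothened, and the Gli zinc-finger factors shift from repression to activation of their targets. Gas1, Boc and Cdon are co-receptors that help cells to sense the ligand, and Hhip binds and sequesters it. Gli1, Ptch1 and Hhip are themselves target genes and serve as the usual readouts of the pathway, while Gas1, Boc and Cdon are known as genes that signalling lowers. In the hindbrain the pathway sets up the ventral progenitors from which cranial motor neurons arise.

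The promoters of Ptch1 and Hhip are shown because these genes are direct targets of Gli factors in textbook accounts of the pathway. Each sequence is the 250 bases before 1 annotated transcript start in RefSeq (GRCm38.p6), on the gene's own strand, and capitals mark GC boxes (GGGCGG or its reverse complement CCGCCC).
Ptch1, chr13:63565736-63565985, minus strand: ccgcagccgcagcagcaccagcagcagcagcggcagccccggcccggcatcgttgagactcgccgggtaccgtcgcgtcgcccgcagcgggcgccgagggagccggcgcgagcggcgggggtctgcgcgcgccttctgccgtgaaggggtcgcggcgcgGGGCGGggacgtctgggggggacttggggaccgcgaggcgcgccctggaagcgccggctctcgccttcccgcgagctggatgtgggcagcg
Hhip, chr8:80058009-80058258, minus strand: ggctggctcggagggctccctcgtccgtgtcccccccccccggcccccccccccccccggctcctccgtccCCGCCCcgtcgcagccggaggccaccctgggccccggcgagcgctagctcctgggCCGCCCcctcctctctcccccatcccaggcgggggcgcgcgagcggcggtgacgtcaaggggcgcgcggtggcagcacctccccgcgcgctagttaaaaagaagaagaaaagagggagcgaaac
The Gli consensus GACCACCCA was searched on both strands in the 300 bases around the start, 250 before and 50 after. Neither motif contains the other. The promoter table matched 7 of the 10 genes, and Shh, Gli1 and Boc had no window. The consensus was in 0 of the 7 windows, against 0.253% of all 32851 windows of this length. At so low a share, 0 of 7 cannot set these genes apart from other windows. A GC box was in 5 of the 7 windows (those of Gas1, Gli2, Gli3, Hhip and Ptch1) and in 35.7% of all windows. The median GC content of the 7 windows was 67.7%, against 52.7% for all. The arrays hold no measurement at these sites, so the sequences give the context of the 2 targets only.

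The 6 arrays were scaled to a common mean before deposition, with medians of 118 to 139 intensity units. Correlations between arrays were 0.885 to 0.907 over all probe sets. The first principal component, with 32.3% of the variance, separated replicate 1 of both groups from the remaining arrays. The log2 intensity of Hoxb1 ran from 12.55 to 12.68 on control arrays and from 11.78 to 12.54 on swap arrays. Each swap array thus lay below each control array, as in 4.55% of all genes. Which part of the swapped locus this probe set detects was not tested. Isl1, a motor neuron factor, read from 13.63 to 14.03 over the 6 arrays. The values of both genes were far above the median of all probe sets. Chat, the acetylcholine-synthesising enzyme of mature motor neurons and named after its values were seen, stood at 2.72 to 6.16.

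The question put to the data was whether the pathway's transcripts differed between the genotypes. None of the 10 genes passed the test. limma called 0 of 10 at an adjusted p under 0.05, where it called 0 of all 45037 probe sets (0%), and 1 of 10 genes (Gli1) had an unadjusted p under 0.05, against 3.63% of all genes. In 0 of 10 genes did the 3 swap arrays all lie on one side of the 3 control arrays, against 8.85% of all genes (4.3% with the swap arrays higher and 4.55% with them lower). Of the 10, 7 had a higher and 3 a lower mean in the swap arrays, and the median log2 difference was 0.13, against 0.01 over all genes. With the probe set used for each gene, a change of 2-fold in either direction lay outside the 95% interval for 7 genes. These were Ptch1, Smo, Gli2, Gli3, Hhip, Gas1 and Boc. Each of the 7 but Gli2 had another probe set whose interval reached 2-fold. Such a change also lay outside the interval for 43.4% of all genes. The share was 68.1% of the genes whose level was not below the median of all probe sets. That median was a log2 intensity of 6.83 (called the median level from here on). Differences are given throughout as swap minus control on the log2 scale, and in sorted pools a lower signal from fewer cells of a type cannot be told apart from less RNA per cell.

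**Figure D1:**
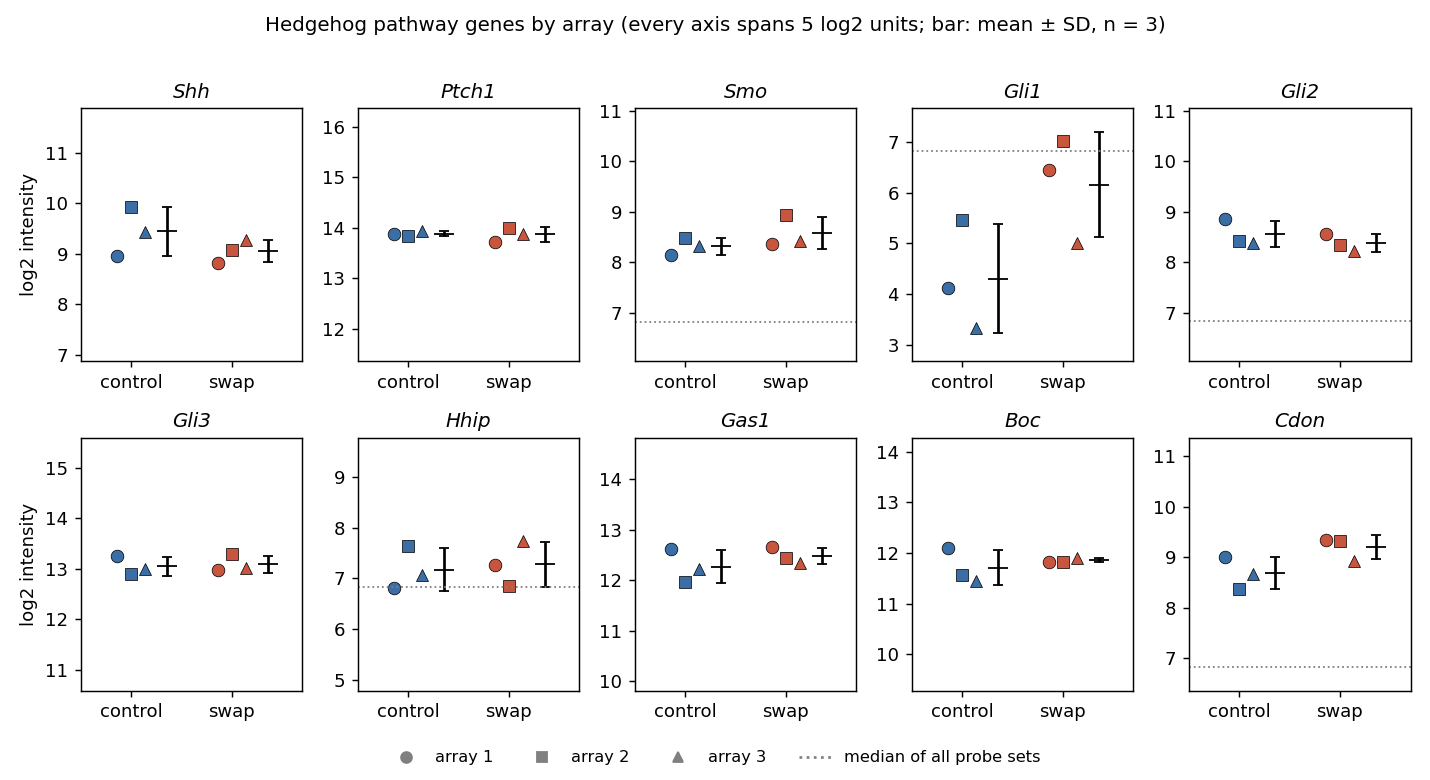
Log2 intensity (vertical axis, spanning 5 units in each panel) of the 10 genes in the 3 control arrays (blue) and the 3 swap arrays (red), with bars for the mean and SD. The dotted line, where it falls inside a panel, is the median of all probe sets at 6.83. The groups overlap in each panel, and Gli1 has the widest spread, from 3.33 to 7.02.

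Shh, the ligand, read log2 intensities of 8.95, 9.93 and 9.43 on control arrays 1 to 3 and 8.82, 9.08 and 9.26 on swap arrays 1 to 3. Control array 2 was the highest and swap array 1 the lowest, and the groups overlapped. The means were 9.44 ± 0.49 and 9.05 ± 0.22 (SD, n = 3 each), and Shh differed by -0.39 (SE 0.32, limma's adjusted p = 1.00) with a 95% interval of -1.19 to 0.41. Without control array 2 the difference was -0.14, and without control array 1 it was -0.63. The other probe set of Shh lay below the median level and gave -0.62, with an interval of -2.60 to 1.35.

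Markers of the tissues that make the ligand were read beside Shh. Of the 7 floor plate markers 6 were measured, 3 with a higher and 3 with a lower swap mean, 0 passed limma's test, and the median difference was -0.06. The summed intensity of these 6 genes was 6174 to 7154 on control arrays and 5034 to 6573 on swap arrays. Most of it came from Spon1, a secreted floor plate protein, with 5331 to 6251 units on control and 4521 to 5603 on swap arrays. The sum thus mainly follows this gene, and only 3 of the 6 genes reached the median level. In log2, Spon1 read 12.38, 12.51 and 12.61 on control arrays 1 to 3 and 12.14, 12.31 and 12.45 on swap arrays 1 to 3. Ntn1, the guidance cue netrin, differed by 0.09 (SE 0.29) and Spon1 by -0.20 (SE 0.22). Foxa2, the forkhead factor that defines the floor plate, had a mean of 6.09 for the control and 5.03 for the swap group, below the median level in both. Of the 7 notochord and pharyngeal endoderm markers 6 were measured, among them the tight junction protein Cldn6 and the adhesion molecule Epcam, and their summed intensity was 647 to 1486 on control arrays and 1044 to 1195 on swap arrays. The part of these tissues in the level of Shh was not tested.

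Ptch1, the receptor and a target of the pathway, was nearly flat over the 6 arrays. It read 13.89, 13.84 and 13.94 on control arrays 1 to 3 and 13.73, 14.003 and 13.88 on swap arrays 1 to 3. Both the highest and the lowest value were swap arrays, so the control arrays lay inside the range of the swap arrays. Ptch1 differed by -0.02 (SE 0.21, limma's adjusted p = 1.00). Its 95% interval, -0.53 to 0.49, bounds the ratio of swap to control for the signal of this probe set between 0.693-fold and 1.41-fold. Its 2 other probe sets, both below the median level, gave 0.95 (interval -2.25 to 4.15) and -0.48 (interval -1.56 to 0.61). These 2 read 11.7 to 137 units and 15.0 to 44.0 units, against 13551 to 16423 units for the probe set used. The probe sets of Ptch1 thus disagreed widely on its level.

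Hhip, the sequestering ligand-binding protein and also a target, was measured just above the median level. It read 6.82, 7.64 and 7.07 on control arrays 1 to 3 and 7.26, 6.84 and 7.74 on swap arrays 1 to 3, with no order between the groups. The difference was 0.10 (SE 0.35, 95% interval -0.77 to 0.98), and it turned to -0.07 without control array 1 and to -0.13 without swap array 3. The 3 other probe sets of Hhip lay below the median level. They gave -1.06 (interval -3.46 to 1.35), 1.21 (interval -0.42 to 2.85) and -0.99 (interval -1.75 to -0.22). The last of these was the 1 of 26 probe sets whose groups did not overlap, against 8.83% of all probe sets. Its intensities were 20.8, 15.5 and 13.7 units on control arrays 1 to 3 and 9.22, 10.1 and 6.06 units on swap arrays 1 to 3, where the median probe set lay at 114 units, and it did not pass (unadjusted p = 0.02, limma's adjusted p = 1.00).

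Gli1, a target gene and an activator of the pathway, had the largest difference of the 10 genes and the least precise one. It was measured by 1 probe set, which read 4.13, 5.46 and 3.33 on control arrays 1 to 3 and 6.45, 7.02 and 5.02 on swap arrays 1 to 3. Swap arrays 1 and 2 were above each control array, and swap array 3 lay below control array 2. Gli1 differed by 1.86 (SE 0.74, unadjusted p = 0.0482, limma's adjusted p = 1.00), with a 95% interval of 0.02 to 3.70, or 1.01-fold to 13.0-fold. In linear units control arrays 1 to 3 read 17.5, 44.0 and 10.02 and swap arrays 1 to 3 read 87.5, 130 and 32.3, so 5 of the 6 values were under the median of 114 units. Adding 64 units before log2, which shrinks differences at such intensities, gave 0.71.

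The 3 readouts therefore stood at 1.86 for Gli1, -0.02 for Ptch1 and 0.10 for Hhip, and 0 of them passed. The margin of the 95% interval, the distance from the difference to either end, was 1.84, 0.51 and 0.87. For Ptch1 and Hhip a change of 2-fold lay outside the interval of the probe set used, and for Gli1 it lay inside. The interval of Gli1 shared the values from 0.02 to 0.49 with that of Ptch1, and whether the genes differ from each other was not tested.

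**Figure D2:**
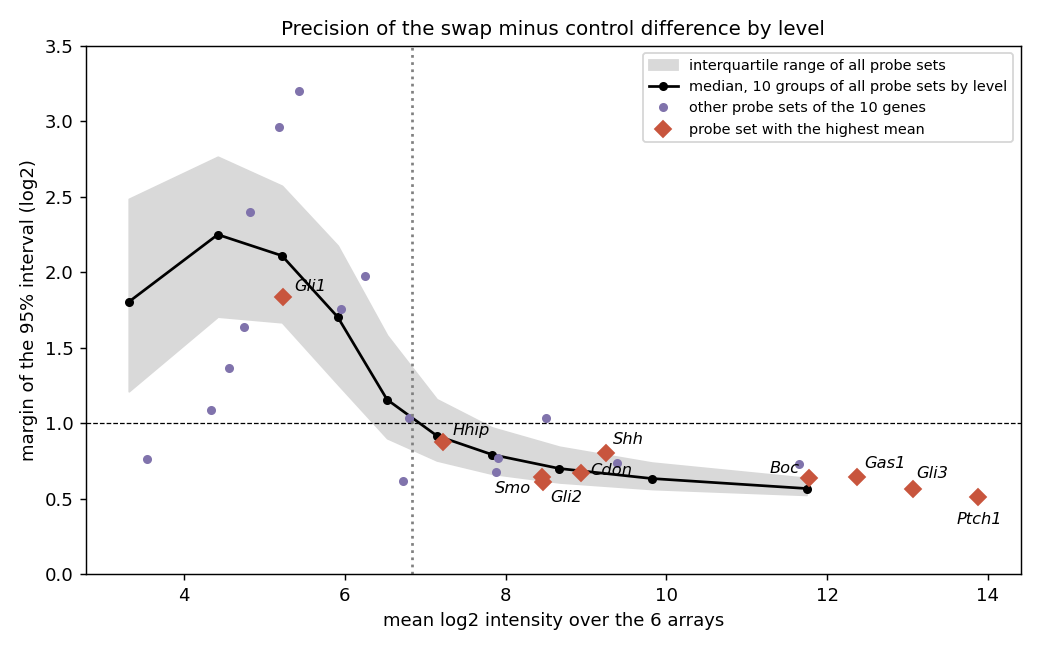
Margin of the 95% interval of the swap minus control difference (log2) against mean log2 intensity over the 6 arrays. The black line and grey band give the median and interquartile range of all probe sets in 10 groups of equal size by level, red diamonds the 10 genes and purple points their other probe sets. The margin falls from 0.87 for Hhip to 0.51 for Ptch1, and Gli1, left of the dotted median level, is at 1.84.

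Gas1, Boc and Cdon, the co-receptors, all had a higher mean in the swap arrays, and 0 of them passed. Cdon read 9.01, 8.38 and 8.67 on control arrays 1 to 3 and 9.34, 9.33 and 8.93 on swap arrays 1 to 3. Swap arrays 1 and 2 were above all control arrays, and swap array 3 was just under control array 1. The means were 8.69 ± 0.32 and 9.20 ± 0.23 (SD, n = 3 each), which is a difference of 0.51 (SE 0.27, unadjusted p = 0.109, limma's adjusted p = 1.00) with a 95% interval of -0.16 to 1.18. The other probe set of Cdon, just below the median level, went the other way, at -0.33 (interval -0.95 to 0.28).

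Gas1, a membrane-anchored co-receptor, read 12.61, 11.97 and 12.23 on control arrays 1 to 3 and 12.66, 12.43 and 12.34 on swap arrays 1 to 3, a difference of 0.21 (SE 0.26, 95% interval -0.44 to 0.85). Boc, the paralog of Cdon in the immunoglobulin superfamily, read 12.10, 11.57 and 11.45 on control arrays 1 to 3 and 11.83, 11.83 and 11.90 on swap arrays 1 to 3, a difference of 0.15 (SE 0.26, interval -0.49 to 0.78). In both genes the control arrays were spread more widely than the swap arrays, with SDs of 0.32 against 0.17 for Gas1 and 0.35 against 0.04 for Boc. The 2 other probe sets of Gas1 gave 0.07 (interval -0.67 to 0.80) and -0.11 (interval -1.14 to 0.93). Those of Boc gave 0.47 (interval -0.21 to 1.15) and 0.83 (interval -0.53 to 2.20). The 3 probe sets of Boc thus shared a sign.

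Markers of other cell types also varied between the control arrays. Control array 2 had the lowest Cdon and Gas1, the highest Shh and the highest summed intensity of the 9 branchial mesenchyme markers. That sum was 1992, 6233 and 4624 units in control arrays 1, 2 and 3 and 2259, 4641 and 3378 units in swap arrays 1, 2 and 3, with Prrx1, a mesenchymal homeobox factor, at 8.16, 10.82 and 10.40 on control arrays 1 to 3. The 5 macrophage markers summed to 408, 15394 and 1522 units on control arrays 1 to 3 and to 2134, 4117 and 3903 units on swap arrays 1 to 3, with C1qb, a complement gene of macrophages, at 8.08, 13.41 and 9.79 on control arrays 1 to 3. Without control array 2 the differences were 0.36 for Cdon, 0.06 for Gas1 and 0.08 for Boc. Without control array 1 they were 0.68, 0.38 and 0.34, and without control array 3 they were 0.50, 0.19 and 0.02. Without swap array 1 Gas1 was at 0.12. The part of mesenchyme and macrophages in these values was not tested.

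**Figure D3:**
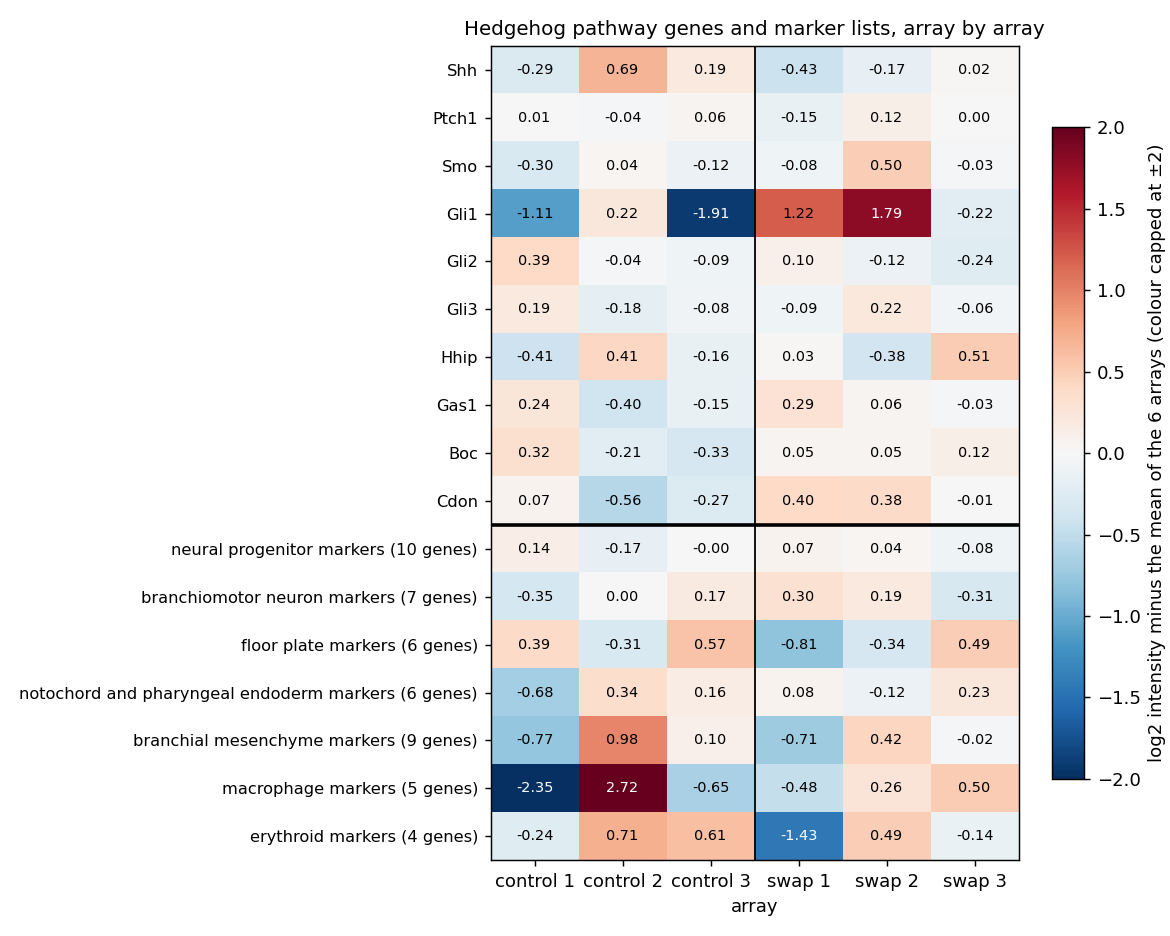
Deviation of log2 intensity from the mean of the 6 arrays for the 10 genes (top) and for the mean of each marker list (below the thick line), by array, with red for higher and blue for lower. Control array 2 reads -0.56 for Cdon, -0.40 for Gas1 and 0.69 for Shh, and it has the highest macrophage and mesenchyme values. Ptch1 stays between -0.15 and 0.12.

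Smo, the membrane protein that carries the signal to the Gli factors, read 8.15, 8.49 and 8.33 on control arrays 1 to 3 and 8.37, 8.95 and 8.43 on swap arrays 1 to 3. Swap array 2 was the highest, and the groups overlapped. Smo differed by 0.26 (SE 0.26, limma's adjusted p = 1.00), with a 95% interval of -0.39 to 0.90, and by 0.07 without swap array 2. The probe set's suffix, s_at, marks probes that can match several transcripts. Its 2 other probe sets were both below the median level. The first, just below it and designed on the same source sequence, gave -0.42 (interval -1.45 to 0.62). The second, with a mean of 5.18, gave 1.84 (interval -1.12 to 4.80). The sign of Smo thus depended on the probe set.

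Gli3, mainly a repressor of the pathway, was measured with more precision than Gli1. It read 13.26, 12.89 and 12.99 on control arrays 1 to 3 and 12.98, 13.28 and 13.01 on swap arrays 1 to 3, in no order by genotype. The difference was 0.04 (SE 0.23, 95% interval -0.53 to 0.61, or 0.695-fold to 1.53-fold). A probe set with means of 11.63 and 11.67 for control and swap gave the same difference to 2 decimals, 0.04, and the third, below the median level, gave -1.12 (interval -2.88 to 0.64).

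Gli2, the main activator in many tissues, read 8.86, 8.43 and 8.38 on control arrays 1 to 3 and 8.57, 8.35 and 8.23 on swap arrays 1 to 3. Control array 1 was the highest value, and the difference was -0.18 (SE 0.25, 95% interval -0.79 to 0.43), or -0.03 without control array 1. The other probe set of Gli2, designed on the same source sequence, gave 0.14 (interval -0.63 to 0.91), so the sign of Gli2 depended on the probe set. The probe set used for Gli2 carries the suffix s_at, like that of Smo, and the other does not.

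Across all 26 probe sets, whose positions in the transcripts are not known here, the values were read on either side of the median level. The 14 probe sets not below the median level gave differences from -0.39 to 0.51, and their margins were 0.51 to 1.03. The 12 below the median level gave -1.12 to 1.86, with margins of 0.62 to 3.20. An interval within 2-fold was found for 10 of the 14 and for 1 of the 12, against 61.3% and 3.96% of all probe sets on the same sides of the median. The 2 probe sets with an unadjusted p under 0.05, those of Gli1 and Hhip, were both below the median. They are 2 of 26 against 4.57% of all probe sets, and 2 of 12 against 7.65% of all probe sets below the median.

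**Figure D4:**
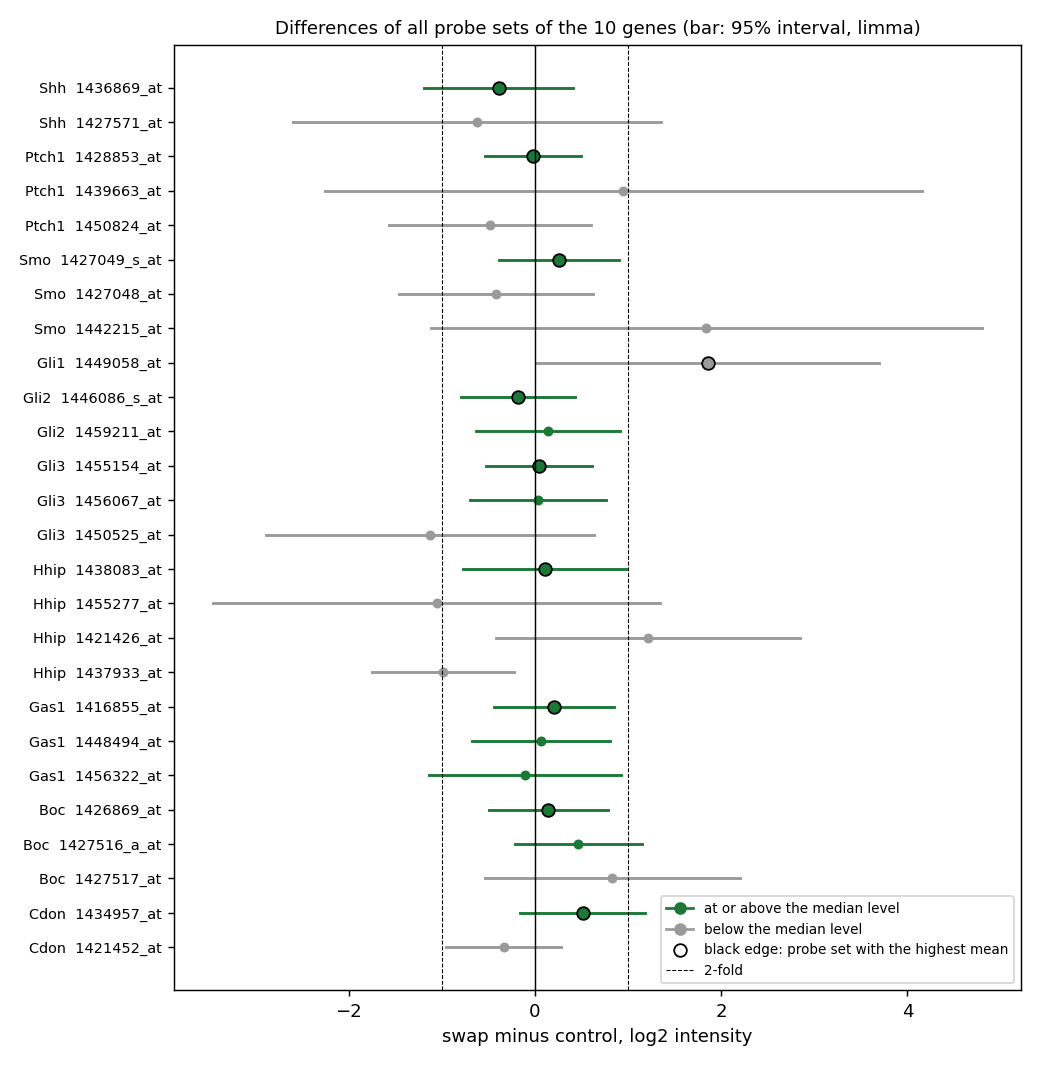
Swap minus control difference in log2 intensity (horizontal axis) with its 95% interval from limma, for the 26 probe sets of the 10 genes. Green marks levels not below the median and grey those below it, black edges mark the probe set used for the gene, and dashed lines mark 2-fold. The intervals of Gli1 and of 1 Hhip probe set leave out 0, and neither passed after adjustment.

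Further genes of the pathway were read from lists. Of the 7 genes that make or release ligands all were measured, 4 with a higher and 3 with a lower swap mean, 0 passed, and the median difference was 0.24. Disp1, which releases the lipid-modified ligand, differed by 0.42 (SE 0.37), the ligand Ihh by 0.57 (SE 0.78, below the median level), the secreted Scube3 by 0.24 (SE 0.28) and the acyltransferase Hhat by -0.22 (SE 0.31). Of the 15 genes of reception and transduction 13 were measured, 6 higher and 7 lower, 0 passed, and the median was 0.00. Sufu, the cytoplasmic inhibitor of Gli factors, read 9.88, 9.54 and 9.74 on control arrays 1 to 3 and 10.22, 9.90 and 9.90 on swap arrays 1 to 3. It differed by 0.29 (SE 0.23, limma's adjusted p = 1.00) and was the 1 of 13 whose swap arrays all lay above the control arrays, against 4.3% of all genes. The kinase Stk36 differed by 0.34 (SE 0.30), the ciliary regulator Tulp3 by -0.22 (SE 0.28), and the kinases Gsk3b and Prkaca, which act on Gli proteins, by -0.08 (SE 0.21) and -0.07 (SE 0.20).

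Of the 6 targets of ventral neural progenitors all were measured, 3 higher and 3 lower, 0 passed, and the median was -0.15. Nkx2-2, the homeodomain factor of the most ventral progenitors, read 9.96, 9.998 and 10.04 on control arrays 1 to 3 and 10.13, 10.42 and 10.53 on swap arrays 1 to 3. All 3 swap arrays were above all 3 control arrays, by a difference of 0.36 (SE 0.22, 95% interval -0.18 to 0.90) that did not pass (limma's adjusted p = 1.00). It was the 1 of 6 in that position, against 4.3% of all genes. Nkx6-2, a homeodomain factor of ventral progenitors, differed by 0.06 (SE 0.20), and Foxa2 and the motor neuron progenitor factor Olig2 by -1.06 (SE 0.84) and -0.47 (SE 0.52), both below the median level.

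The other known targets had 7 of 7 measured, 1 higher and 6 lower, 0 passed, and a median of -0.13. The cyclins Ccnd1 and Ccnd2 differed by 0.04 (SE 0.20) and -0.09 (SE 0.31). Foxf1, a forkhead target in mesenchyme, read 7.69, 9.12 and 8.41 on control arrays 1 to 3 and 5.66, 7.40 and 8.04 on swap arrays 1 to 3, a difference of -1.38 (SE 0.71, 95% interval -3.13 to 0.38). Control array 2 was the highest, as for the summed mesenchyme markers above. Among the swap arrays, Foxf1 was highest on array 3 and that sum on array 2. The part of mesenchyme in Foxf1 was not tested. The related Foxf2 and Foxd1 differed by -0.57 (SE 0.86, below the median level) and -0.28 (SE 0.42). Genes that Hedgehog signalling represses in the neural tube had 6 of 6 measured, 3 higher and 3 lower, 0 passed, and a median of 0.04. Pax3, a factor of dorsal progenitors, differed by 0.36 (SE 0.26), Pax7 by 0.09 (SE 0.23), Pax6 by -0.18 (SE 0.23) and Dbx2 by -0.49 (SE 0.57, below the median level).

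**Figure D5:**
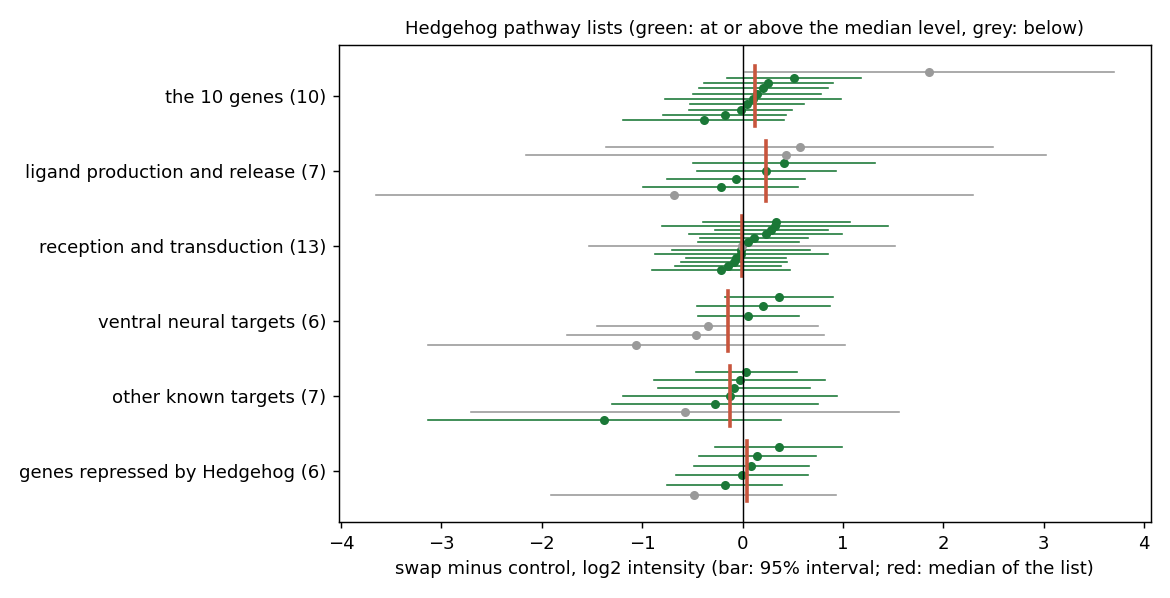
Swap minus control difference in log2 intensity, with 95% intervals, for the 10 genes and for the 5 lists of further pathway genes, sorted within each list. The red bars are the list medians, from -0.15 for ventral neural targets to 0.24 for ligand production and release. Genes below the median level are in grey.

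Neural progenitors, the cells in which the pathway acts in the neural tube, were read from 10 markers. Of these 5 were higher and 5 lower, 0 passed, the median difference was 0.00, and 9 of 10 intervals lay within 2-fold. Their summed intensity was 53532 to 57575 units on control arrays and 54578 to 55210 units on swap arrays, among them the filament protein Vim and the fatty-acid binding protein Fabp7. Of the 7 measured branchiomotor neuron markers 4 were higher and 3 lower, and 0 passed. Ebf1 and Isl1 differed by 0.15 (SE 0.23) and 0.13 (SE 0.21), and Phox2a, chosen after its values were seen as the member with the smallest p, by -0.50 (SE 0.31). The 7 genes summed to 37192 to 40875 units on control arrays and to 50422, 41489 and 39359 units on swap arrays 1 to 3. Of the other marker lists 0 genes passed. Their median differences were -0.09 for neural crest and glia (3 of 5 measured), -0.61 for otic cells (3 of 4), 0.63 for endothelium (5 of 5) and -0.45 for erythroid cells (4 of 5). Of the otic genes 0 of 3 and of the endothelial genes 0 of 5 reached the median level. The summed otic intensity was 302 to 341 units on control arrays and 152, 174 and 372 units on swap arrays 1 to 3. The 4 erythroid genes summed to 20471, 32956 and 30635 units on control arrays 1 to 3. On swap arrays 1 to 3 they summed to 15329, 27552 and 30904 units. Most of this came from the embryonic globin Hbb-y, whose mean log2 intensity over the 6 arrays was 14.11. The part of blood cells in the values of the 10 genes was not tested. All 5 endothelial genes had a higher swap mean, against 50.9% of all genes. In 1 of them, Cldn5, named after its values were seen, the groups did not overlap, against 4.3% of all genes with the swap arrays higher. The 5 genes summed to 192 to 371 units on control arrays and to 402 to 501 units on swap arrays, without overlap. The part of endothelium in the values of the 10 genes was not tested.

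The genes whose profile over the 6 arrays lay closest to those of Ptch1 and Gli1 were found by the root mean square difference of centred log2 values, among genes not below the median level. For Ptch1, compared with 11167 genes, these were Cul4b (0.023), Sirt1 (0.028) and Ubr3 (0.035), whose own differences were -0.04, 0.01 and -0.04. For Gli1, compared with 11168 genes, they were Slc39a12 (0.50), Rcsd1 (0.57) and Synpo2 (0.70), whose own differences were 1.34, 1.03 and 1.22. Because the genes were picked on these same arrays, differences like those of Ptch1 and Gli1 follow from the choice. Gli1 itself lay below the median level, so genes at its own level were not compared.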

How the data were processed

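Biotin-labelled RNA of 6 pools of sorted cells was measured on Affymetrix Mouse Genome arrays. The deposited table holds 1 linear intensity for each of 45101 probe sets and each array. The authors used affy, per the submitters' processing notes; its version, background correction and summary method: not given in the sources used here. On each array the 2% trimmed mean of the deposited intensities is 500. There are no detection calls and no scan dates, so no batch could be tested.

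log2 was taken with no offset and no further normalization. After 64 array controls were left out, 34945 probe sets had 1 symbol, 932 had several and 9160 had none. Of the probe sets with 1 symbol, 34741 had an Entrez identifier that matched RefSeq and 204 did not. All 45037 probe sets were fitted with limma 3.58.1 in R 4.3.3 (lmFit, eBayes, two-sided p, Benjamini-Hochberg over all probe sets, threshold 0.05), tested first on simulated data. Lists were described by counts and medians, with no list test.

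The 10 genes and the lists were chosen with earlier results of these data known. All 10 genes were named. Of the pathway lists, genes past the threshold, the 3 with the smallest p and the 2 with the highest mean were named. The 2 marker genes with the highest mean were named for floor plate, notochord and endoderm, progenitors and branchiomotor neurons. For mesenchyme, macrophages and erythroid cells only the gene with the highest mean was named, and for neural crest and otic cells none. Exceptions are stated or were chosen for their role after values were seen (Foxa2 among the floor plate markers). Listed genes without a probe set of 1 symbol were not analysed here. The Hox protein made in the swap group is not reported here. Alternatives were quantile normalization, median centring, a block for the replicate number, a filter on levels below the median, an added 64, another variance prior, array weights, other ways to join probe sets, and leaving out arrays.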

Additional observations from a re-analysis of the deposited data

How the results depend on the processing

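limma called 0 probe sets in all 14 alternatives (smallest adjusted p 0.241, with 838 to 2375 at an unadjusted p under 0.05) and 0 of the 10 genes in all 16. The block, the other variance prior and the median-level filter cannot move a difference. Under the other settings, 113 of 130 differences of the 10 genes kept their sign and 17 turned, and 0 passed. The 113 include values of Gli1 and Cdon that could not move when probe sets were joined otherwise. Gli1 has only 1 probe set, and the most variable probe set of Cdon is the one used. Ptch1 turned to 0.012 with arrays centred on their median, 0.053 without both replicate 1 arrays, 0.15 with the mean of its probe sets and 0.95 with its most variable probe set, and ranged from -0.085 to 0.054 with 1 array left out. Hhip turned to -0.062, -0.18 and -1.06 under the last 3 of these settings, and ranged from -0.13 to 0.33. Gli3 turned to -0.35 with the mean of its probe sets and to -1.12 with the most variable one, and ranged from -0.055 to 0.15. With the most variable probe set, Gli2 was at 0.14 and Gas1 at -0.11. The cause was not tested. With 1 array left out Gli1 ranged from 1.37 to 2.44 and Cdon from 0.36 to 0.68. The deviations of arrays with the same number correlated at 0.23, 0.03 and 0.22. Control arrays 1 and 3 correlated best with the swap array of the same number, and control array 2 with swap array 3 (0.12). The labels do not say that the numbers mark a shared litter, batch or day, so they were not taken as pairs in the main fit. With the replicate number as a block limma called 0 probe sets (smallest adjusted p 0.940), and Gli1 had an adjusted p of 0.940. Below the median level 3.96% of probe sets had an interval within 2-fold, against 61.3% of the rest.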
